A study of Mus musculus with 6 samples.

Results

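The genes of prostaglandin synthesis, breakdown and sensing were followed in bulk RNA sequencing of mouse kidneys, in 3 Control and 3 KC-Tie2 libraries. The set was 10 names: the cyclooxygenases Ptgs1 and Ptgs2, the prostaglandin D2 synthase Ptgds, the prostaglandin E2 synthases Ptges, Ptges2 and Ptges3, the degrading enzyme Hpgd, and the receptors Ptger1, Ptger3 and Ptger4. They were chosen by name, with the Control and KC-Tie2 values of these same libraries already known and Ptgds already known to be high in KC-Tie2 kidneys. The comparison of the genotypes below therefore describes the set and is not independent evidence about it. Of the 10 names, 9 were found among the 17550 genes of the deposited table. Ptgs2 is not among them and was not analysed here.

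KC-Tie2 mice are a psoriasis model that carries a Tie2 receptor transgene in keratinocytes, and the comparison group is labelled Control, or WT in the headers of the authors' deposited comparison. The kidneys of both genotypes were flushed with saline before RNA extraction, and libraries were made from poly(A) RNA. Strain, sex, age, litter and batch are not given in the labels. Nothing in the labels states that the libraries come from separate animals, so p-values measure only the spread between these samples.

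Prostaglandins are lipid mediators made from arachidonic acid, which phospholipase A2 enzymes release from membranes. Cyclooxygenases turn it into prostaglandin H2, and terminal synthases then make D2, E2 and other prostanoids, which act on G protein-coupled receptors. In the kidney, prostaglandin E2 is known for its effects on blood flow, renin release, and salt and water transport in the thick ascending limb and collecting duct. The enzyme encoded by Hpgd inactivates prostaglandins after they have been taken up into cells.

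The promoters of Ptgds and Ptger3 are shown because these were the members whose KC-Tie2 libraries all lay above the Control libraries. Each runs from 250 bases before to 50 bases after the RefSeq start on the build GRCm38.p6, read along the gene. That of Ptgds lies at chr2:25469700-25469999 on the minus strand and that of Ptger3 at chr3:157566626-157566925 on the plus strand. Capitals mark matches to the motifs searched.
Ptgds: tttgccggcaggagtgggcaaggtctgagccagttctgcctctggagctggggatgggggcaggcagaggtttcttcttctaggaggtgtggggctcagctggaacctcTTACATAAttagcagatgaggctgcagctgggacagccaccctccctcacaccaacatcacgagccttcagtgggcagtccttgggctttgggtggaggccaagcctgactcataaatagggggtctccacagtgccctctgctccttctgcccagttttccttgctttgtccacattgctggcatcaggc
Ptger3: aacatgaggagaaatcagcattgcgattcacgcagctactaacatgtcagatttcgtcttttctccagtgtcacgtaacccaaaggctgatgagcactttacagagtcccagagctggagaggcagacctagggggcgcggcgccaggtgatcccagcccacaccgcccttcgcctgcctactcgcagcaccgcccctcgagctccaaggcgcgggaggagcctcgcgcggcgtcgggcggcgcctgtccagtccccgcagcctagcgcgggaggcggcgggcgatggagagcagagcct

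The motifs were TTCNNNGAA for STAT factors, TTNNGNAA for C/EBP factors, GGGANTTCC for NF-kB and TATAAA for a TATA box, each on both strands. The Ptgds window held a single match, TTACATAA, a C/EBP match on the strand opposite the gene, starting 141 bases before the start. The Ptger3 window held none of the 4 motifs. A C/EBP match was present in 5 of the 9 member promoters listed in RefSeq (Ptgds, Ptgs2, Ptges, Ptges2 and Hpgd) and in 40.7% of all 32851 windows of 300 bases. Matches to the STAT, NF-kB and TATA motifs were found in 8.3%, 1.68% and 13.6% of all windows. Of the member windows, only that of Hpgd held one of these, a TATA match that begins 4 bases after the start, not before it. These matches are letters in a window and were not linked to the expression values.

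Values are the authors' normalized counts, with the mean ± SD over n = 3 libraries per genotype. Normalized counts summed to between 23647811 and 25495455 per library, and 1 read was worth an estimated 0.826 to 1.35 of them. Proximal tubule markers were abundant in every library, with summed levels of 260328 to 335259. Tek, the gene for Tie2, averaged 1048 ± 50.9 in the Control group and 948 ± 24.8 in the KC-Tie2 group, which says nothing of a transgene active in skin. Transcripts of the Y chromosome were found in all 6 libraries (Kdm5d 863.6 to 994.8), together with Xist at 25.6 to 414.9. Markers of fat tissue were highest in replicate 1 of both genotypes, and urothelial markers were lowest in Control replicate 3 and KC-Tie2 replicate 2. In whole kidney RNA, more cells of a type and more RNA per cell cannot be told apart.

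Ptgds was the member with the largest difference between the genotypes. It encodes lipocalin-type prostaglandin D synthase, which makes prostaglandin D2 and also carries small lipophilic molecules (ENSMUSG00000015090, chromosome 2, 25356721 to 25360058, minus strand, in the deposited table with mm39 named as the build). Control replicates 1 to 3 had 65.1, 34.7 and 64.9 normalized counts, and KC-Tie2 replicates 1 to 3 had 153.2, 247.6 and 189.6. The groups did not overlap, and the lowest KC-Tie2 library was 2.35 times the highest Control library. Ptgds rose from 54.9 ± 17.5 to 196.8 ± 47.6, a 3.61-fold difference (log2 fold change 1.85 ± 0.27 SE, limma adjusted p = 0.0115). Behind these values stood an estimated 62, 42 and 48 reads in Control and 138, 297 and 209 reads in KC-Tie2 replicates 1 to 3. In the authors' deposited table the ratio was 3.64 with a step-up FDR of 2.98e-09. Without KC-Tie2 replicate 2, the highest library, the log2 fold change was 1.67 and the adjusted p = 0.0505, in a range of 0.00661 to 0.0505 over all alternatives run.

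**Figure D1:**
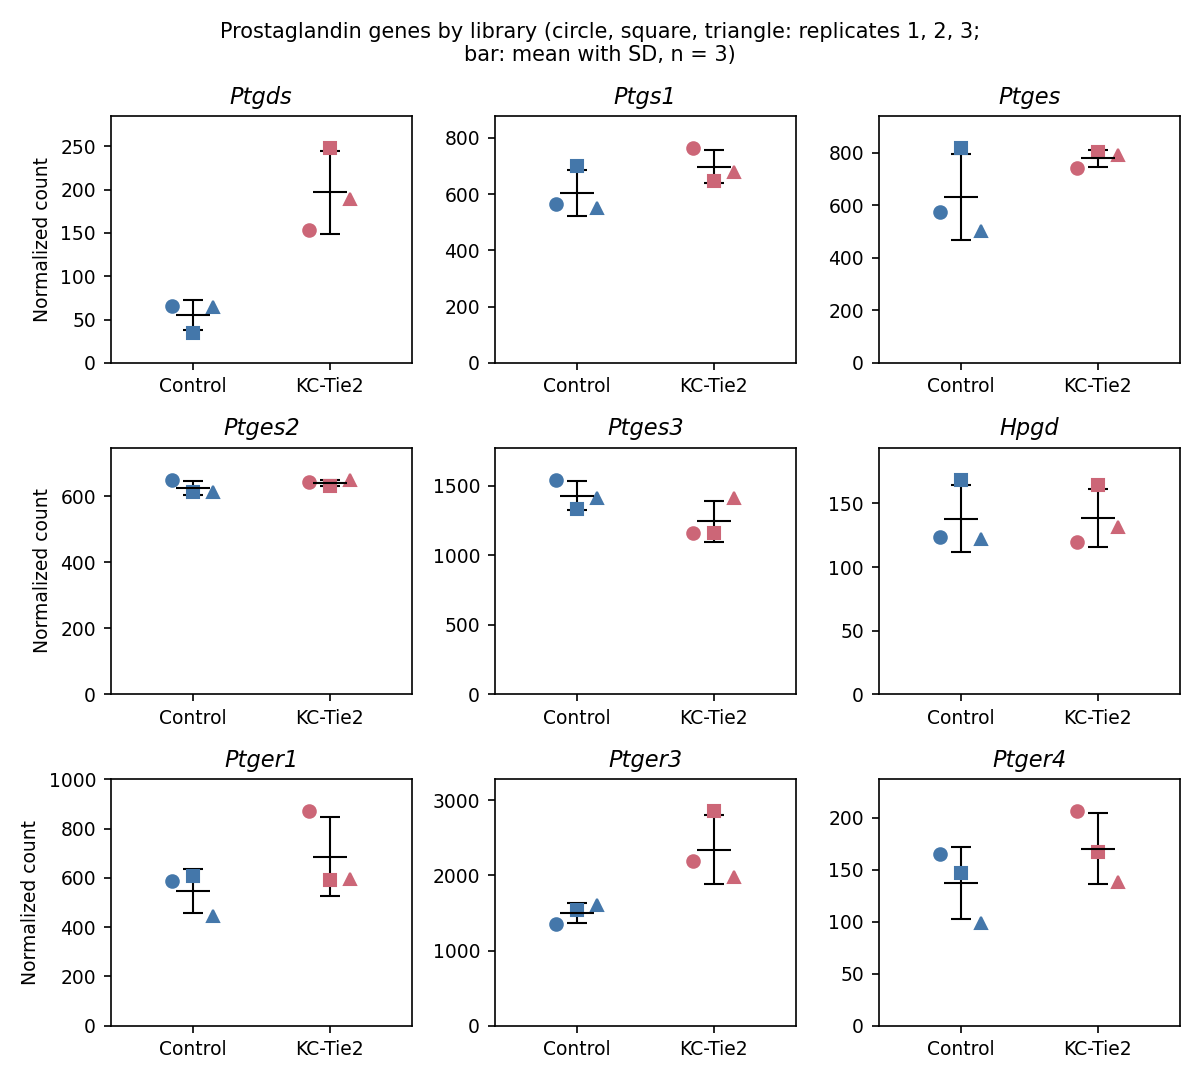
Normalized counts (vertical axes, from 0) of the 9 measured prostaglandin genes in each library, by genotype (horizontal axes). Circles, squares and triangles are replicates 1, 2 and 3, and bars give the mean with its SD. Ptgds (34.7 to 65.1 against 153.2 to 247.6) and Ptger3 (1353.1 to 1604.6 against 1979.7 to 2852.5) are the genes whose groups do not overlap.

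Of 10 tested genes within 100 kb of Ptgds on chromosome 2, limma called 0. Over all 17539 tested genes, 0.855% were called higher and 0.838% lower. The log2 fold changes of the 10 ran from -0.31 (C8g, a complement component gene) to 0.47 (Clic3), with only that of C8g below 0. Traf2, an adaptor of tumour necrosis factor receptors in that interval, had means of 340.1 and 436.1 with a limma adjusted p of 0.081. No listed gene overlapped Ptgds, and its estimated counts were whole numbers in all 6 libraries.

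The genes whose values ran most like Ptgds over the 6 libraries were Agt, Fgf9, Cox6a1, Med6 and Gpr183, with Pearson's r of 0.994, 0.994, 0.99, 0.987 and 0.987 on the log2 scale. They were the top 5 of 12269 genes compared, and with n = 6 libraries from the same pair of genotypes the values are a description only. Agt, which encodes angiotensinogen, had 1291.1, 1048.9 and 1252.9 in Control and 1823.1, 2173.1 and 1829.1 in KC-Tie2 replicates 1 to 3. Like Ptgds, it was lowest in Control replicate 2 and highest in KC-Tie2 replicate 2, and it rose by a log2 fold change of 0.70 ± 0.096 (limma adjusted p = 0.00742). Fgf9, a fibroblast growth factor gene, had 382 ± 31.2 and 500.5 ± 17.8 and was not called (limma adjusted p = 0.0649).

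Prostaglandin D2 is also made by Hpgds, the haematopoietic enzyme of mast cells and some macrophages. Hpgds had 55.7, 47.1 and 75.8 in Control and 105.5, 74.2 and 90.7 in KC-Tie2 replicates 1 to 3. Control replicate 3 lay just above KC-Tie2 replicate 2, and the gene was not called (59.5 ± 14.7 and 90.1 ± 15.7, log2 fold change 0.60 ± 0.23, limma adjusted p = 0.222). Of 5 mast cell markers only Kit was in the table, so its values cannot be assigned to mast cells. Kit had 617.7, 649.1 and 619.7 in Control and 529.6, 555.2 and 500.8 in KC-Tie2 replicates 1 to 3. Every KC-Tie2 library thus lay below the Control libraries, and Kit was not called (log2 fold change -0.25). Macrophage markers summed to 1368 to 1919 in Control and 1822 to 2182 in KC-Tie2 libraries, sums made up mostly of Csf1r. All 5 had estimates above 0, and C1qa, a complement gene of macrophages, rose from 131.7 ± 11.7 to 253.7 ± 5.8 (limma adjusted p = 0.00742, log2 fold change 0.94 ± 0.13). The part of mast cells or macrophages in the Hpgds values was not tested. The D2 receptors Ptgdr and Ptgdr2 were not analysed here.

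Of the cyclooxygenases, only the constitutive form encoded by Ptgs1 was measured. It had 564.9, 698.5 and 551.8 normalized counts in Control replicates 1 to 3 and 762.5, 648.5 and 680.5 in KC-Tie2 replicates 1 to 3 (ENSMUSG00000047250, chromosome 2, 36120438 to 36142284). Control replicate 2 lay above KC-Tie2 replicates 2 and 3, so the groups overlapped. The difference was not called, and its 95% interval on the log2 scale ran from -0.018 to 0.44 around 0.21 (limma adjusted p = 0.37). Gm43621, an unclassified gene on the other strand within Ptgs1, had means of 30.6 ± 3.88 and 40.2 ± 11.7.

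All 3 prostaglandin E2 synthases were measured, and none was called. Ptges encodes the inducible microsomal enzyme, which in the kidney is known from the collecting duct and medulla. Its levels were 575.7, 816 and 502 in Control and 741.7, 804.4 and 790.3 in KC-Tie2 replicates 1 to 3 (ENSMUSG00000050737, chromosome 2, 30779483 to 30819875). The KC-Tie2 libraries lay close together (coefficient of variation 4.23%), while Control replicate 2 exceeded all of them (26% in Control). Ptges was not called (log2 fold change 0.33 ± 0.16, 95% interval -0.043 to 0.71, limma adjusted p = 0.388). Without Control replicate 2 its log2 fold change was 0.53, with a limma adjusted p of 0.016, in a range of 0.016 to 0.672 over the alternatives. That library also had the highest urothelial marker sum, 1176.9 against 634.5 and 188.1 in Control replicates 1 and 3, the same order as Ptges. In KC-Tie2 replicates 1 to 3 the sums were 933.7, 152.5 and 563.4, the reverse of the order of Ptges. The part of urothelium in the Ptges levels was not tested.

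Ptges2, a synthase of the Golgi and cytosol, was the steadiest member. It had 649.2, 612 and 612.9 in Control and 641.7, 630.2 and 648.7 in KC-Tie2 replicates 1 to 3, with coefficients of variation of 3.4% and 1.46%. Its 95% interval for the log2 difference ran from -0.13 to 0.20 around 0.036 (limma adjusted p = 0.878).

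Ptges3 encodes p23, a co-chaperone of Hsp90 that is also named as a cytosolic prostaglandin E synthase. It was the only member with a negative estimate. Control replicates 1 to 3 had 1540.8, 1332.4 and 1407.6, and KC-Tie2 replicates 1 to 3 had 1156.2, 1161.5 and 1413.8. KC-Tie2 replicate 3 lay within the Control range, and the gene was not called (log2 fold change -0.20 ± 0.091, limma adjusted p = 0.314). The pseudogene Ptges3-ps had means of 465.4 ± 47.2 and 409.3 ± 57.7, and estimated counts of Ptges3 were whole numbers in 0 of 6 libraries. The share of reads assigned to each copy is therefore uncertain.

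Hpgd encodes 15-hydroxyprostaglandin dehydrogenase, the main inactivating enzyme. Its means were nearly equal, 138.1 ± 26.4 in Control and 138.6 ± 23 in KC-Tie2 kidneys (ENSMUSG00000031613, chromosome 8, 56747620 to 56774078). The 6 libraries gave 124, 168.5 and 121.8 in Control and 119.9, 164.2 and 131.6 in KC-Tie2 replicates 1 to 3, with replicate 2 the highest in both genotypes. The 95% interval of the log2 difference ran from -0.38 to 0.40, and the sign of the estimate differed among the alternatives run. Slco2a1, the prostaglandin transporter that brings prostanoids to this enzyme, had 1152.4, 1003.5 and 1151.4 in Control and 1360.1, 1555.5 and 1292 in KC-Tie2 replicates 1 to 3. Its groups did not overlap, and it missed the call (log2 fold change 0.35 ± 0.087, limma adjusted p = 0.0758). The authors' deposited table gave Slco2a1 a ratio of 1.27 and a step-up FDR of 0.0328.

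Ptger3 encodes EP3, a receptor that lowers cyclic AMP in the thick ascending limb and collecting duct, where it opposes vasopressin (ENSMUSG00000040016, chromosome 3, 157272529 to 157351525, plus strand). Control replicates 1 to 3 had 1353.1, 1545.2 and 1604.6 normalized counts, and KC-Tie2 replicates 1 to 3 had 2197.2, 2852.5 and 1979.7. The groups did not overlap, and the lowest KC-Tie2 library was 1.23 times the highest Control library. The means were 1501 ± 131 and 2343 ± 454, a ratio of 1.56 (log2 fold change 0.63 ± 0.13, 95% interval 0.33 to 0.93). The limma adjusted p = 0.0634 missed the threshold. The authors' deposited table gave a ratio of 1.56 and a step-up FDR of 6.34e-05. Ptger3 was called in 3 of the 14 alternatives, among them those without KC-Tie2 replicate 3 (log2 fold change 0.74, limma adjusted p = 0.0128) and with eBayes without robust (0.0452), in a range of 0.0128 to 0.196 over the 14. Splice forms of EP3 cannot be told apart in gene-level values. The genes with values most like those of Ptger3, looked up after its values were seen, were Ston2, Ddah2, Plekhd1, Asxl1 and Cyfip2 (Pearson's r of 0.993 to 0.996 over the 6 libraries).

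Summed markers of the nephron segments in which EP3 is known to act also had groups that did not overlap. This was not particular to them. The macula densa and juxtaglomerular, inner medulla and neutrophil sums did not overlap either, while the distal convoluted tubule, intercalated cell and podocyte sums did. The 5 thick ascending limb markers summed to 95822, 96173 and 101461 in Control and 108705, 131883 and 102585 in KC-Tie2 replicates 1 to 3, the same order of libraries within each genotype as Ptger3. Of these 5, 3 had estimates above 0 and 0 were called, and Umod and Slc12a1 made up most of the sum. Umod by itself overlapped (62793.5 in KC-Tie2 replicate 3, 64015.5 in Control replicate 3), and Slc12a1 by itself did not. Cldn16 (means of 107.4 and 97.5) and Ppp1r1b (1212 and 1198) had estimates below 0. The 6 principal cell markers summed to 9344 to 11573 in Control and 13284 to 16785 in KC-Tie2 libraries, all 6 with estimates above 0 and 0 called. Among them the water channel gene Aqp2 had 3794 ± 1114 and 6778 ± 1460 (log2 fold change 0.86 ± 0.28, limma adjusted p = 0.254). The urea transporter gene Slc14a2 of the inner medulla had 1313 ± 299 and 2387 ± 378 (limma adjusted p = 0.106). Proximal tubule sums were lower, 311573 to 335259 in Control against 260328 to 303304 in KC-Tie2 libraries. The part of these shifts in the Ptger3 values was not tested.

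**Figure D2:**
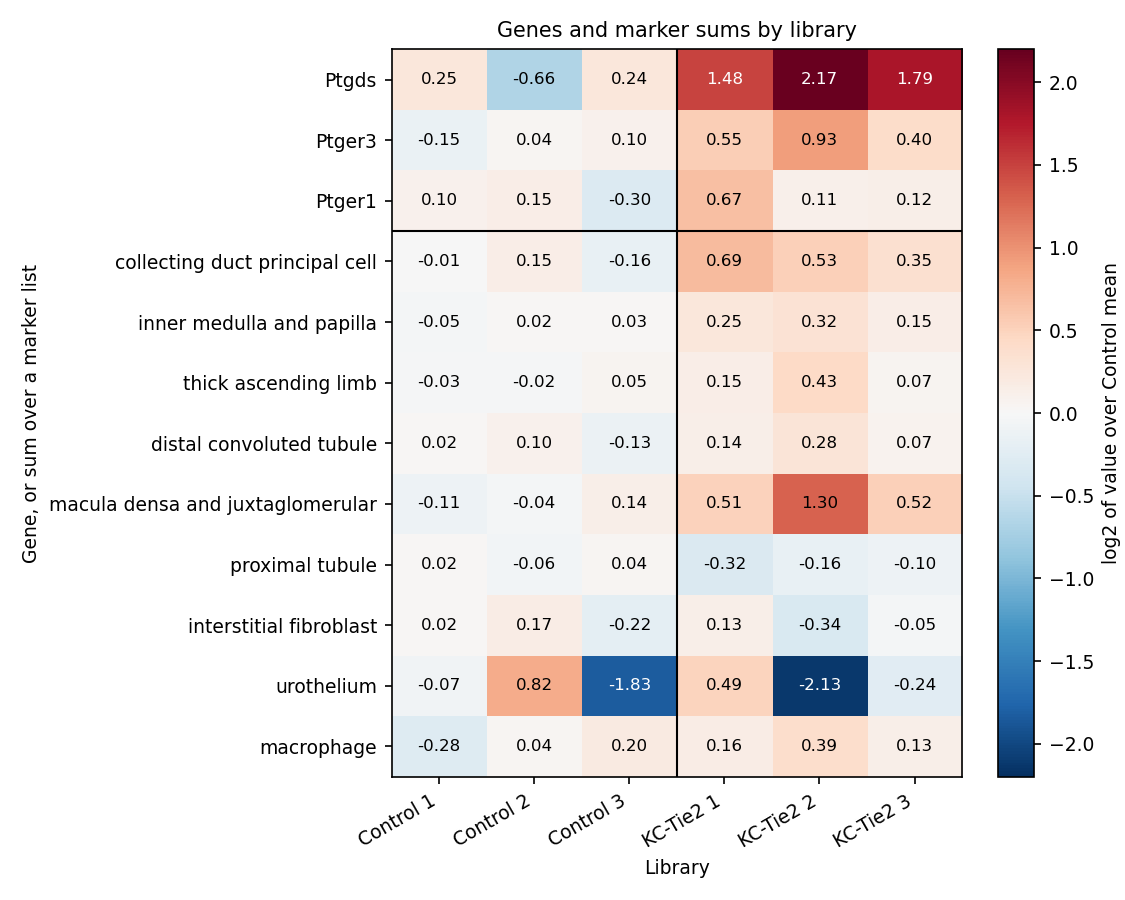
Log2 of the value in each library over the Control mean (colour and printed number) for Ptgds, Ptger3 and Ptger1 and for the summed markers of 9 cell types or regions (rows), in the 6 libraries (columns). Ptger3 (0.40 to 0.93 in KC-Tie2 libraries) lies in the range of the principal cell sum (0.35 to 0.69) or above, while Ptgds (1.48 to 2.17) exceeds the 9 marker sums plotted in the same library; the neutrophil sum, which is not plotted, differed by more than Ptgds.

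Within both genotypes Ptgds was highest or near its highest in the library with the lowest urothelial sum. These were KC-Tie2 replicate 2 with 247.6 and Control replicate 3 with 64.9. The highest Control value of Ptgds, 65.1, was in replicate 1, whose urothelial sum lay between those of replicates 2 and 3. Urothelial sums were 634.5, 1176.9 and 188.1 in Control and 933.7, 152.5 and 563.4 in KC-Tie2 replicates 1 to 3. Fibroblast sums (6206 to 8137 in Control, 5702 to 7897 in KC-Tie2 libraries) and fat tissue sums (67.6 to 1997 and 17.5 to 1446.7) overlapped between the genotypes, as did the urothelial sums. Neutrophil markers, of which 3 of 5 were in the table, summed to 8.4 to 17.3 in Control and 58.1 to 145.4 in KC-Tie2 libraries. That was a larger relative difference in the sum than that of Ptgds. All 3 markers were called higher, beside 0.855% of all tested genes. The part of any of these cell types in the Ptgds values was not tested.

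Ptger1 encodes EP1, a calcium-mobilizing receptor known from the collecting duct (ENSMUSG00000019464, chromosome 8, 84393307 to 84399382). It had 587.8, 609.1 and 445.6 in Control and 870.1, 589.9 and 597 in KC-Tie2 replicates 1 to 3. KC-Tie2 replicate 1 stood above the other libraries, and the remaining pair of KC-Tie2 libraries lay inside the Control range. The difference was not called (log2 fold change 0.31 ± 0.18, limma adjusted p = 0.481). Estimated counts of Ptger1 were whole numbers in 1 of 6 libraries, and the sources used here do not state whether counting used strand, so the assignment of reads to Ptger1 is uncertain.

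Ptger4 encodes EP4, which raises cyclic AMP and in the kidney takes part in renin release (ENSMUSG00000039942, chromosome 15, 5236142 to 5273668). Its values were 165.4, 146.8 and 99 in Control and 206.1, 166.8 and 137.7 in KC-Tie2 replicates 1 to 3, and the groups overlapped (log2 fold change 0.32 ± 0.21, limma adjusted p = 0.517). Ren1, the renin gene, had 683.9, 635.9 and 970.1 in Control and 1346.8, 3046.7 and 1344.6 in KC-Tie2 replicates 1 to 3. These groups did not overlap, although the large value of KC-Tie2 replicate 2 widened the spread and Ren1 was not called (log2 fold change 1.24 ± 0.42, limma adjusted p = 0.289). Ttc33, which overlaps Ptger4 on the other strand, had 423 ± 9.4 and 419.3 ± 32.4.

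Levels were compared between members per kilobase of annotated exon, using exon lengths of GENCODE M21, a release that may differ from the one used for counting. The length of a gene was the union of the exons of all its annotated transcripts, which may exceed the transcripts present. The order of genes below therefore depends on these lengths, among them 3931 bases for Ptges and 5058 for Ptges2. On that scale Ptger3 was the highest of the measured E-prostanoid receptors, at 237.9 to 501.5 normalized counts per kilobase over the 6 libraries. Ptger1 had 81.6 to 159.4 and Ptger4 14.9 to 31, so the ranges of the 3 receptors did not meet. Among the synthases, Ptges3 (521.5 to 695) stood above Ptges (127.7 to 207.6) and Ptges2 (121 to 128.4). Ptges averaged 198.1 ± 8.37 per kilobase in KC-Tie2 kidneys against 126.6 ± 1.85 for Ptges2, with no overlap, while in Control kidneys the ranges of Ptges and Ptges2 met through Control replicate 3 (127.7 for Ptges). Ptgds averaged 33.3 ± 10.6 per kilobase in Control and 119.3 ± 28.9 in KC-Tie2 kidneys. In Control kidneys it thus lay below Hpgd (82 ± 15.7 per kilobase), and in KC-Tie2 kidneys the Ptgds range reached above that of Hpgd with an overlap (92.9 to 150.1 against 71.2 to 97.6).

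Over the whole set, 1 of the 9 measured members was called higher in KC-Tie2 kidneys and 0 lower, where 0.855% of the 17539 tested genes were called higher and 0.838% lower. At 2 of the 9 every KC-Tie2 library was above every Control library, and at 0 of the 9 every one was below, against 9.96% and 10% of all tested genes. Of the 9, Ptgds and Ptger3 (2 of 9) had a ratio above 1 and a step-up FDR under 0.05 in the authors' deposited table, where 1.83% of all genes did. The median log2 fold change of the 9 was 0.31, beside 0.0012 over all tested genes. Of the 9 estimates 8 were above 0, beside 8823 of those of all 17539 tested genes. Because the members were chosen with these values known, nothing further is read from the counts.

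Other genes of the prostanoid pathway were taken from a list of 21, of which 17 were tested. Of these, 1 was called higher and 0 lower, beside 0.855% and 0.838% of all tested genes. The median log2 fold change of the 17 was 0.064, beside 0.0012 over all tested genes. Estimates were above 0 for 10 of the 17, beside 8823 of all 17539 tested genes. The gene that rose was Cbr1, a carbonyl reductase that can convert prostaglandin E2 to F2 alpha. It had 737.5, 773.9 and 571 in Control and 946, 1128.7 and 969 in KC-Tie2 replicates 1 to 3, with no overlap (log2 fold change 0.55 ± 0.12, limma adjusted p = 0.0465). The call of Cbr1 was made in 7 of 14 alternatives and in 1 of the 6 that left out a library, the one without Control replicate 2 (adjusted p of 0.00592 to 0.192 over the 14). Ptgfr, the receptor for prostaglandin F2 alpha, also had groups that did not overlap, at 763.5 ± 111.8 and 927 ± 20, and was not called (limma adjusted p = 0.185). Slco3a1, an organic anion carrier that accepts prostaglandins, was lower in all KC-Tie2 libraries at 5022 ± 864 and 3507 ± 411 (log2 fold change -0.51 ± 0.13, limma adjusted p = 0.104). The authors' deposited table gave Slco3a1 a ratio of 0.699 and a step-up FDR of 0.00156.

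The prostacyclin and thromboxane branches gave no call. Ptgis, prostacyclin synthase, had 57.5 ± 11.9 and 59.6 ± 12.3, and its receptor gene Ptgir had 42 ± 18.1 and 31.8 ± 3.21. Tbxas1, thromboxane synthase, averaged 407.7 ± 58.8 and 510.4 ± 103.7, and the thromboxane receptor gene Tbxa2r had 65.6 ± 2.41 and 64.4 ± 6.5. Akr1b3, an aldose reductase gene of the renal medulla that can also make prostaglandin F2 alpha, varied most, from 389.7 to 2520.1 among the KC-Tie2 libraries alone. Abcc4, an efflux pump for prostaglandins, ran from 1150 to 2444.6 among the Control libraries.

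**Figure D3:**
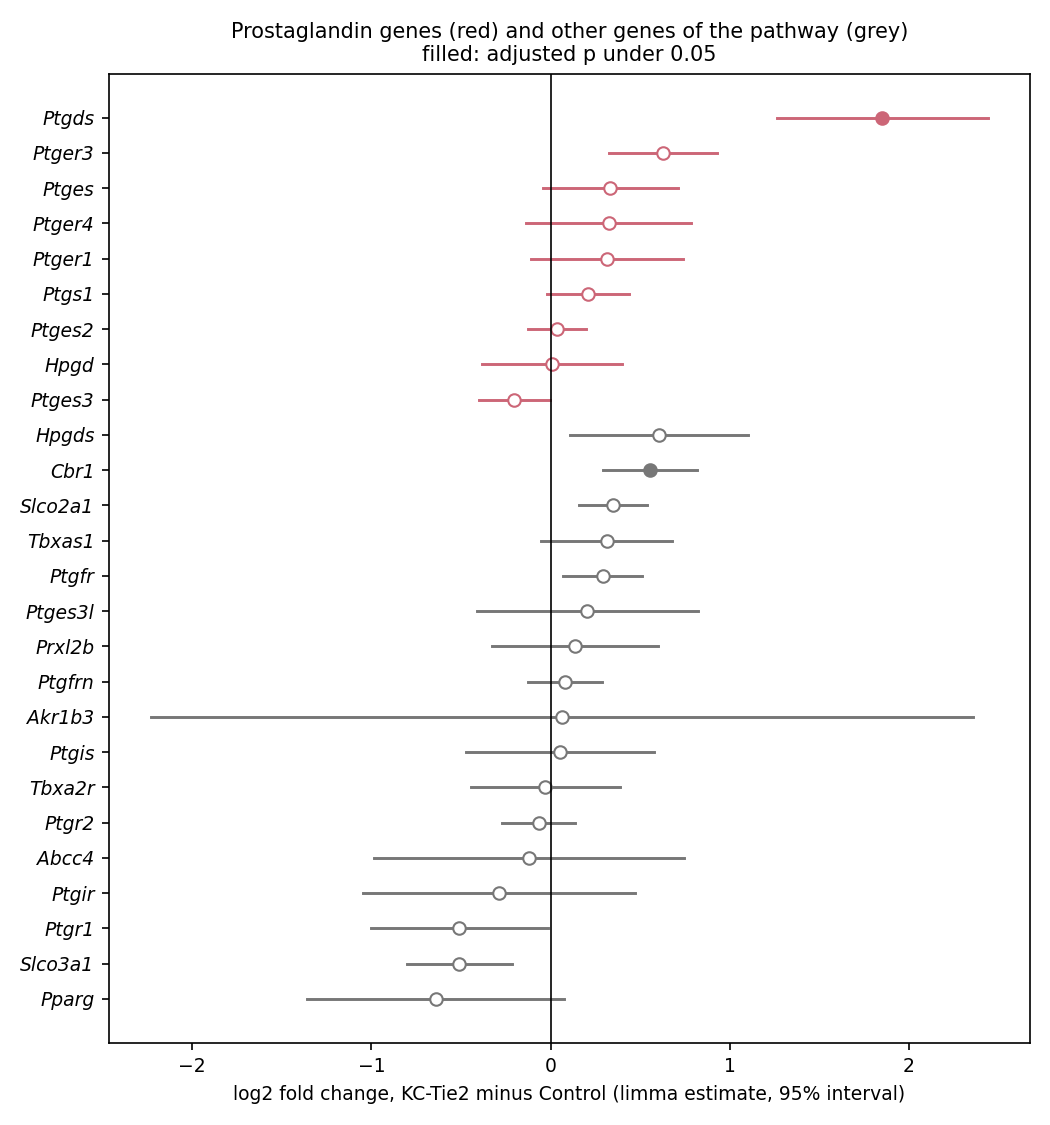
Limma log2 fold changes, KC-Tie2 minus Control (horizontal axis), with 95% intervals for the 9 measured prostaglandin genes (red) and 17 other genes of the pathway (grey), filled where the adjusted p was under 0.05. Ptgds (1.85) and Cbr1 (0.55) are the filled points, and the interval of Ptger3 (0.33 to 0.93) lies to the right of 0.

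Upstream of the cyclooxygenases and in the neighbouring lipoxygenase and epoxide branches, 16 of 31 listed genes were tested. Of the 16, 0 were called higher and 1 lower, beside 0.855% and 0.838% of all 17539 tested genes. Their median log2 fold change was 0.13, beside 0.0012 over all tested genes. Pla2g4a, the cytosolic phospholipase A2 that supplies arachidonic acid to cyclooxygenases, had 156.5, 216.4 and 173.2 in Control and 224.3, 208.4 and 194.2 in KC-Tie2 replicates 1 to 3, with overlap (log2 fold change 0.21 ± 0.15, limma adjusted p = 0.554). Ephx2, the soluble epoxide hydrolase that breaks down epoxides of arachidonic acid, fell. It had 6064.8, 5754.3 and 6628.1 in Control and 3308.6, 3587 and 4777.7 in KC-Tie2 replicates 1 to 3 (log2 fold change -0.68 ± 0.13, limma adjusted p = 0.0435). Its call was made in 9 of 14 alternatives and in 1 of the 6 that left out a library, the one without KC-Tie2 replicate 3 (adjusted p of 0.000845 to 0.182 over the 14). Alox5ap, the activating protein of 5-lipoxygenase, had 30.2 ± 3.97 and 42.2 ± 5.15 with no overlap and no call (limma adjusted p = 0.432), while Alox5 itself had 43 ± 9.87 and 37.4 ± 2.49.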

How the data were processed

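RNA was measured in 6 kidney libraries, grouped by the genotype in the sample titles (3 Control, 3 KC-Tie2), and table columns were matched by the library names in the labels. The deposited values are a signal, the authors' normalized counts. Per the submitters' processing notes, Partek 12.5.0, STAR, DESeq2 and the build mm39 were used. The sources used here give no role for each tool, annotation release, strand setting or filter on low genes. In each library, 68.4% to 70.8% of values under 60 were whole multiples, to within 0.01, of 1 step size. An estimated count is a value divided by that step, and 1 estimated count corresponds to 0.826 to 1.35 normalized counts. Whole reads were not recovered, so no count model was fitted. In the authors' deposited comparison table, the p-value, step-up FDR and ratio columns were copied, not retested. Its signed fold change (unit other) and model mean signal, also deposited, were not printed.

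Values were analysed as log2(value + 1), computed here from the deposited signal, for 17539 genes (mean of 10 or more over the libraries), with limma 3.58.1 in R 4.3.3 (lmFit, eBayes with trend and robust, two-sided). Every measured member passed the filter in both genotypes. P-values were Benjamini-Hochberg adjusted over all 17539 genes, and called below 0.05. Fold changes are on the log2(value + 1) scale, which understates changes of low genes. The fit was tested on simulated data in which each gene varied independently and no library was shifted as a whole. That setting does not cover effects of single libraries or of cell composition. Python 3.11.15, pandas 2.3.3, numpy 2.4.6 and matplotlib 3.10.9 made the summaries and figures.

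The members, gene lists and settings were chosen with earlier results of these data known. Named genes were all members, the called genes of the pathway lists, genes overlapping a member, and the 5 genes most correlated with Ptgds among those with a mean of at least 50, without predicted genes and pseudogenes. Other pathway genes, Ptges3-ps, and the genes around Ptgds were named after their values were seen. Not every gene that the rule names is reported here. Alternatives were other pseudocounts, filters and scalings, eBayes without robust, a replicate block and each library left out. Promoter sequences are RefSeq's (GRCm38.p6), and 9 of the 10 members matched. These coordinates are not comparable with the mm39 positions.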

Additional observations from a re-analysis of the deposited data

How the results depend on the processing

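Directions of the 9 measured members held in all 14 alternatives, except for Hpgd, whose log2 fold change of 0.0088 was -0.019 with quantile normalization and ran from -0.12 to 0.16 with single libraries left out. The call of Ptgds was kept in 13 of 14. Members called higher numbered 2 with the replicate block and 2 with eBayes without robust (Ptgds and Ptger3 in both, Ptger3 at an adjusted p of 0.013 with the block), and 0 to 2 with single libraries left out. Pathway genes called numbered 0 at a mean of at least 100, 2 with the replicate block (Cbr1 and Slco3a1), 0 with eBayes without robust, and 0 to 2 with single libraries left out. Phospholipase A2 and leukotriene genes called numbered 0 to 1 with single libraries left out. Over all tested genes, 150 were called higher and 147 lower. These counts were 259 and 322 with the replicate block, and ran from 25 to 311 and from 18 to 371 with single libraries left out. The cause of these changes was not tested, and a fit without 1 library has fewer samples.

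The labels do not say that replicate numbers pair the samples. Deviations of same-numbered samples from their group means, correlated across genes, gave 0.178, -0.0956 and 0.0173 for numbers 1 to 3, and number 1 alone was the best match in both directions, so the numbers were not treated as pairs. Depth limits Ptgds most: at 42 to 62 estimated counts in Control libraries, counting error is a visible part of its spread.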
